A study of Arabidopsis thaliana with 9 samples.

Results

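The comparison described here is that of 6-day-old Arabidopsis thaliana seedlings of the mutant melinoe with untreated wild-type seedlings of the accession Col-0, read across all genes. It uses 6 of the 9 libraries of the series, 3 of each genotype, and a deposited table of 24242 genes; the remaining 3 libraries, of Col-0 given riboflavin, enter only as an alternative. Both groups grew on sucrose-containing medium in long days (16 hours lit, 8 hours dark), and polyadenylated RNA of whole seedlings went into strand-specific libraries. The mutant comes from EMS mutagenesis and is altered in FMN/FHY (AT4G21470), so other changes that the mutagen left in the same line cannot be told apart from the FMN/FHY change. The hour of collection, and how many seedlings a library pools, are not given in the sources used here. Genes of 3 lists, namely jasmonate, heat shock and the light-harvesting antenna, were set aside, and the rest of the transcriptome was described by size of change and by expression level.

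FMN/FHY encodes a bifunctional enzyme: its kinase domain phosphorylates riboflavin (vitamin B2) to FMN, and its second domain hydrolyses FMN back to riboflavin. FMN and FAD, which is made from FMN, are the redox cofactors of oxidases, dehydrogenases and blue-light receptors, among them glycolate oxidase of photorespiration, the phototropins and the berberine-bridge enzymes of the cell wall space. A change in the kinase can therefore touch many flavoproteins, but the RNA measured here reports on transcripts and not on flavin levels or enzyme activity.

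Library totals ran from 19964391 to 21421414 counts. Across genes, scaled log2 counts of 2 libraries of a group correlated at 0.9966 or more and those of different groups at 0.975 or less, a description of similarity in which genes are not independent replicates. Levels below are in TPM, a share of the library scaled for transcript length so that genes can be set side by side, computed here from the deposited counts and the longest annotated mRNA of each gene. Fold changes are log2 values of mutant over Col-0, estimated by edgeR from the counts. "Higher", "rose", "lower" and "fell" mean an edgeR quasi-likelihood test with Benjamini-Hochberg adjusted p under 0.05 over all genes tested. Over all genes tested 25.4% were higher and 25.2% lower, and counts of list members below are to be read beside these shares. Errors are SD over 3 libraries of a group unless called SE. The labels call the libraries biological replicates without saying what was replicated, so the p-values measure the spread between these libraries.

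Promoters of 6 genes that recur below are printed first, as examples of the short words that differed in frequency between the groups of changed genes. The bases are the 250 before the annotated gene start, read 5′ to 3′ on the gene's own strand from the RefSeq annotation of TAIR10.1, and the genes were picked after their values were seen. The first 3 rose: FRK1 at chr2:8329945-8330194 (- strand), the berberine-bridge enzyme gene AT1G26380 at chr1:9128569-9128818 (- strand) and the peroxidase gene AT5G64120 at chr5:25661008-25661257 (- strand). Capitals mark TTGAC and its reverse complement GTCAA, the core of the W-box that WRKY transcription factors bind.
FRK1: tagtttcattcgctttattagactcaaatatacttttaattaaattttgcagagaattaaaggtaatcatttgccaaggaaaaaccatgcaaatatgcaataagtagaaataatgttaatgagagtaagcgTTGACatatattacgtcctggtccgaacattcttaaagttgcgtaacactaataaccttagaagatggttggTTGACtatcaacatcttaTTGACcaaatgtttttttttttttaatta
AT1G26380: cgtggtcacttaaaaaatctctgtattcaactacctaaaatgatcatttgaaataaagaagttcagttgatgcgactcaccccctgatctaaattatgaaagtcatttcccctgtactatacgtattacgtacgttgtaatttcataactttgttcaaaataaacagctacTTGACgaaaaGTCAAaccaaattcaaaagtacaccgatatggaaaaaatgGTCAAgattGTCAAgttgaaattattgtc
AT5G64120: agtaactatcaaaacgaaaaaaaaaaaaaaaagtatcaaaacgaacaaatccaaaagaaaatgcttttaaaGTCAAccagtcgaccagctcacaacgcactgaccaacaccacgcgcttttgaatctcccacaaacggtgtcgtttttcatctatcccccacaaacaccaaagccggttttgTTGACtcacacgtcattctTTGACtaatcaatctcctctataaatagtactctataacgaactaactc
The other 3 fell: the transcription factor genes RRTF1 at chr4:16451626-16451875 (+ strand) and AT1G19210 at chr1:6627689-6627938 (- strand), and the auxin-response repressor IAA19 at chr3:5263751-5264000 (+ strand). Here capitals mark CACGTG, the G-box bound by bHLH and bZIP factors, which reads the same on both strands. The W-box core was left in lower case, although RRTF1, AT1G19210 and IAA19 also hold it, with 2, 2 and 1 matches. These windows therefore do not set one word against the other.
RRTF1: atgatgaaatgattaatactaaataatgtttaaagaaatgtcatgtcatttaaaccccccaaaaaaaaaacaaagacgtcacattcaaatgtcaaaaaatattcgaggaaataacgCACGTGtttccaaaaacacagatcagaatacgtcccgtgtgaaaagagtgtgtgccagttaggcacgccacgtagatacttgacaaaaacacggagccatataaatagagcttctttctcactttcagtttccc
AT1G19210: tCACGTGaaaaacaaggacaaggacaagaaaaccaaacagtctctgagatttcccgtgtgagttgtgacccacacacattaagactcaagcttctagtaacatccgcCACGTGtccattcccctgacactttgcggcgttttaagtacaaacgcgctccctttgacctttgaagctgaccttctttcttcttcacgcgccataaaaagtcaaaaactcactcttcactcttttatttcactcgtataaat
IAA19: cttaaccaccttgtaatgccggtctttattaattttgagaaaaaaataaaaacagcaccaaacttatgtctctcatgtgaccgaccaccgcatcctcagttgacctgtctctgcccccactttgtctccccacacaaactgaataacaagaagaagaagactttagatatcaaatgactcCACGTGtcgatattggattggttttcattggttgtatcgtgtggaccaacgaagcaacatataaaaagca

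TTGAC on either strand was present in 45.5% of the 20152 such windows of all genes tested, in 67.6% of the 732 windows of genes that at least doubled and in 46.9% of the 480 windows of genes that at least halved. Windows with 2 or more matches made up 14.5%, 34.4% and 14.2% of these sets. CACGTG was present in 7.28% of all windows, in 4.78% of those of doubled genes and in 13.1% of those of halved genes. The words were counted separately, so a base shared by matches of both counted for each. These are frequencies of letters in a window, and binding was not measured.

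Many small differences and a smaller set of large ones separated the genotypes. Of 20277 genes with enough reads to test, 5148 were higher in the mutant (25.4%) and 5106 lower (25.2%), together 50.6%; 3965 genes of the table were too low to test. Calls that were higher made up 50.2% of all calls, and 39.2% with limma-trend on the TPM values without TMM scaling, an alternative chosen after the data were seen, where the median of all genes sat at -0.05. Among the called genes, 66.3% had an absolute log2 fold change under 0.5. A doubling was reached by 744 genes (3.67% of those tested) and a halving by 486 (2.4%), a 4-fold change by 196 higher and 64 lower genes, and an 8-fold change by 72 and 16. In 56.7% of genes tested the 3 libraries of one group lay wholly above those of the other.

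The balance of calls differed between expression levels. Among the 1848 genes with a mean of 100 to 1000 TPM, 47.2% were higher and 24.1% lower. Among the 6789 tested genes at 1 to 10 TPM, 17.7% were higher and 24.4% lower. At 1000 TPM and above, 36 of 87 genes were higher and 40 lower; 7 of the higher genes at least doubled and none of the lower ones halved. By number, large rises lay mostly at low levels: genes that rose 2- to 4-fold had a median of 6.82 TPM, and those that rose 8-fold or more one of 3.76 TPM. As a share of genes tested, doubled genes made up 8.29% below 1 TPM, 2.28% at 10 to 100 TPM and 8.05% at 1000 TPM and above. The median absolute log2 fold change of all genes tested was 0.44 below 1 TPM and 0.16 at 10 to 100 TPM. Of 4898 genes below 1 TPM, 977 had enough reads to test. A gene this low can pass the filter through its higher group alone, and its counting error is large. The values below 1 TPM therefore cannot be set directly beside those of higher classes. Summed over genes, all called higher genes gained 96379 TPM, and the level of all called lower genes dropped by 86106 TPM. The doubled genes gained 35847 TPM of this, and the level of the halved genes dropped by 8470.2 TPM.

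**Figure D1:**
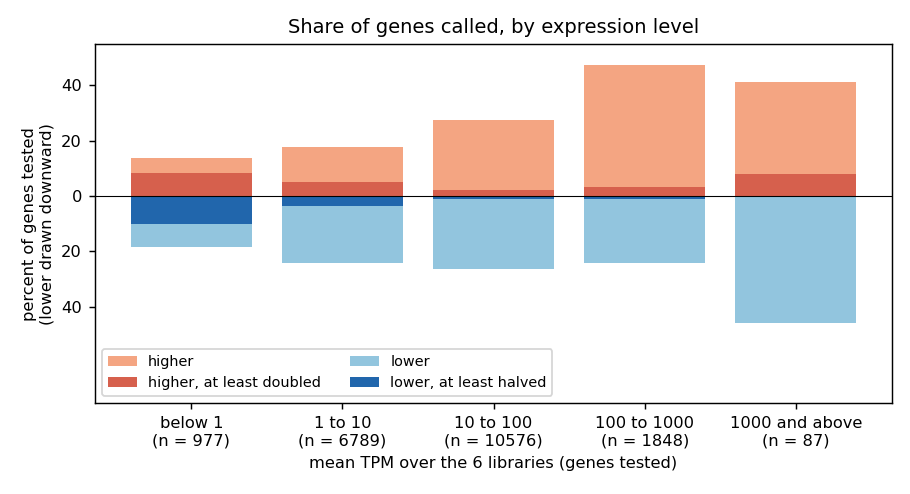
Percent of genes tested that were called higher (upward bars) or lower (downward bars) in melinoe, by class of mean TPM over the 6 libraries; darker parts are genes that at least doubled or halved. The share higher reaches 47.2% at 100 to 1000 TPM, and no gene at 1000 TPM or above halved.

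**Figure D2:**
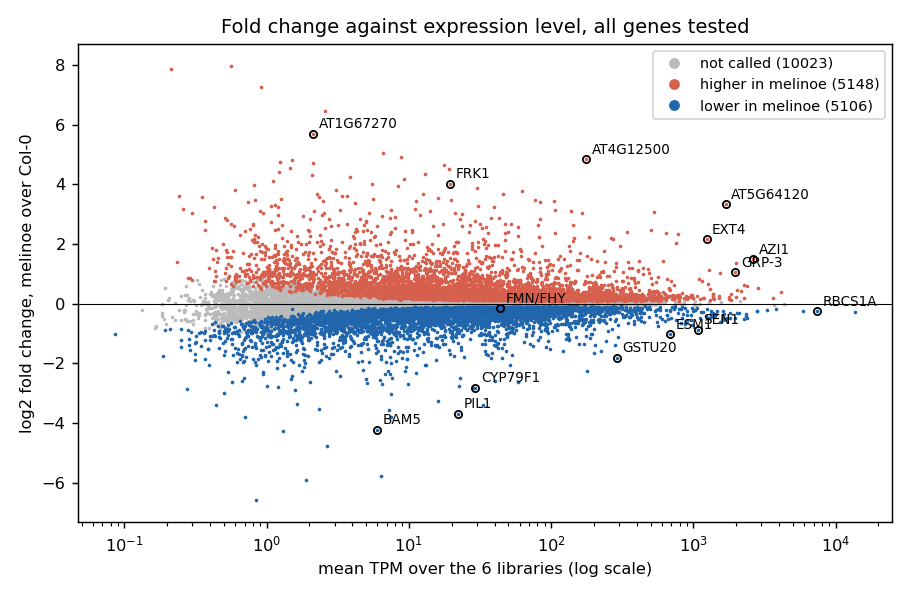
Log2 fold change of melinoe over Col-0 (edgeR) against mean TPM over the 6 libraries on a log axis, 1 point per gene tested, coloured by call. The named points show that AT5G64120, AZI1, GRP-3 and EXT4 combined high levels with at least a doubling, whereas PIL1, CYP79F1 and BAM5 fell steeply from lower levels.

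FMN/FHY transcript itself was at 46.4, 49.5 and 45.1 TPM in Col-0 and 39.1, 42.1 and 40.8 TPM in the mutant. The mutant libraries were all a little lower, with a log2 fold change of -0.15 (SE 0.052; edgeR, adjusted p = 0.0168, and adjusted p from 0.00392 to 0.11 over the alternatives). The mutation was not read from these data, and the transcript level does not check the genotype.

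Transcripts of flavin-dependent enzymes moved in both directions. Of 19 genes for FMN-using enzymes, 7 rose, 5 fell and the median was 0.02, where 25.4% of all genes tested were higher, 25.2% lower and the median of all was 0.00. Glycolate oxidase GOX1, an FMN enzyme of photorespiration, was at 723, 708 and 716 TPM in Col-0 and 493, 470.2 and 481 TPM in the mutant (-0.51). GLU1, the ferredoxin-dependent glutamate synthase that reassimilates photorespiratory ammonium, was at 215, 207 and 205 TPM in Col-0 and 122, 123 and 123 TPM in the mutant (-0.71). Both of these abundant members fell. ATHAL3B, an FMN-binding decarboxylase of coenzyme A synthesis, rose by 0.81, and chorismate synthase EMB1144, which needs reduced FMN, by 0.49. FQR1, an FMN-binding quinone reductase, rose by 0.45; it was picked after its values were seen. PHOT1, the FMN-binding blue-light receptor phototropin 1 and likewise picked afterwards, was at 179.7, 177 and 181 TPM in Col-0 and 84.1, 85.1 and 82.8 TPM in the mutant, whereas its relative PHOT2 was at 12.3, 11.6 and 12.2 TPM in Col-0 and 11.6, 11.4 and 11.9 TPM in the mutant and was not called.

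Among 52 tested genes for FAD-using enzymes, 12 rose and 21 fell, with a median of -0.06. FMO1, the flavin monooxygenase that makes the systemic immune signal N-hydroxypipecolic acid, was at 3.47, 3.34 and 4.47 TPM in Col-0 and 10.3, 9.54 and 10.4 TPM in the mutant (log2 fold change 1.48). The aldehyde oxidases AO1 and AAO3, the second of which makes abscisic acid, rose by 0.66 and 0.64. The cytokinin oxidase CKX5 had -1.03, and nitrate reductase NIA2, the most abundant member, 0.15.

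The berberine-bridge enzymes, a further flavoprotein family, mostly rose. They are secreted oxidases that bind FAD covalently, and several Arabidopsis members oxidise cell wall sugars or indole compounds. Of 24 such genes with values, 19 were tested; 13 rose, 9 of them at least doubling, and 1 fell, with a median log2 fold change of 0.94. Their summed level went from 579 ± 9.67 TPM in Col-0 to 1282 ± 18.2 TPM in the mutant. A tandem array on chromosome 1, from 9126737 to 9143336 in TAIR10.1, carried the steepest rises, and all 4 of its tested genes rose. AT1G26380 was at 8.27, 7.77 and 7.86 TPM in Col-0 and 71.3, 73.6 and 70.02 TPM in the mutant. AT1G26390 was at 1.56, 1.15 and 1.5 TPM in Col-0 and 34.2, 34.9 and 33.2 TPM in the mutant. AT1G26410 was at 1.1, 1.64 and 1.07 TPM in Col-0 and 23.1, 27.3 and 23.6 TPM in the mutant. In each of these the mutant libraries lay far above Col-0, with log2 fold changes of 3.23 (SE 0.0565, adjusted p = 5.29e-26), 4.65 and 4.33; AT1G26420 had 3.01, and the fifth gene, AT1G26400, had too few reads to test. The array and the other tandem arrays below were picked after values were seen, and reads of such close paralogs are uncertain in their assignment. The most abundant member of the family, AT5G44380, had 206, 204 and 211 against 311, 318 and 320.0 TPM and a smaller log2 fold change of 0.67.

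Genes for cell surface receptors rose more often than they fell. The cysteine-rich receptor-like kinases, many of which respond to pathogens and oxidants, had 22 of 30 tested members higher and 2 lower, with a median of 0.73 beside 0.00 over all genes. CRK20 rose from 0.571 ± 0.183 TPM in Col-0 to 4.36 ± 0.204 TPM in the mutant (2.98), and CRK29, the most abundant, from 45.9 ± 0.422 TPM in Col-0 to 65.6 ± 0.975 TPM in the mutant (0.57). Lectin receptor kinases had 43 of 72 higher and 12 lower. In the array of LECRKA4 genes on chromosome 5 all 3 members rose, LECRKA4.2 by 2.77, LECRKA4.3 by 1.72 and LECRKA4.1 by 1.66. AT2G29220, a lectin kinase picked after its values were seen, had 0, 0 and 0 counts in Col-0 and 39, 24 and 28 counts in the mutant, that is, reads in every mutant library and in none of Col-0.

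Wall-associated kinases, which sense pectin, had 11 of 20 higher and 2 lower, and WAKL4 rose by 3.60. Receptor-like proteins had 19 of 41 higher and 5 lower. Leucine-rich repeat kinases as a whole were nearer the background, with 46 of 134 higher and 24 lower. One array of them on chromosome 1, from 19206615 to 19288385, had 9 of 11 tested genes higher and 1 lower. IOS1, an array member that modulates immune receptor complexes, was at 16.8, 15.7 and 19.7 TPM in Col-0 and 95.3, 99.7 and 101 TPM in the mutant (2.56). AT1G51790 and AT1G51850 of the same array rose by 2.07 and 2.26, and RHS6 (AT1G51880), a gene named for root hairs, fell by 1.08 on the log2 scale. Intracellular resistance proteins of the TIR-NBS-LRR and CC-NBS-LRR types had 42 of 120 higher and 23 lower, with AT4G11170 at 0.784, 0.642 and 0.646 against 5.61, 5.86 and 6.13 TPM (3.14).

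Immune signalling genes did not move one way. FRK1, a receptor kinase gene used as a marker of the response to bacterial flagellin, was at 2.43, 2.23 and 2.44 TPM in Col-0 and 36.7, 37.9 and 35.5 TPM in the mutant, a 16.1-fold rise (log2 SE 0.07, adjusted p = 5.18e-26). WRKY29, a transcription factor of the same response, rose by 1.84, and the indole glucosinolate hydroxylase CYP81F2 by 1.96. Against these, WRKY33 was at 125, 115 and 117 TPM in Col-0 and 66.2, 60.03 and 63.6 TPM in the mutant (-0.85), the chitin co-receptor LYK5 fell by 1.35 on the log2 scale, and the map kinase MPK3 and the damage-peptide receptor PEPR1 had -0.51 and -0.73. Of the 28 genes of pattern-triggered immunity 11 rose and 9 fell, with a median of 0.01. WRKY33, MPK3 and PEPR1 were named after their values were seen.

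Salicylic acid genes were mixed as well: 13 of 23 rose, 4 fell, and the median was 0.28. Enzymes of synthesis rose: EDS16, the isochorismate synthase, was at 6.37, 6.07 and 6.54 TPM in Col-0 and 21.4, 22.6 and 20.1 TPM in the mutant (1.81), and PBS3, which couples isochorismate to glutamate, was at 0.658, 0.964 and 0.635 TPM in Col-0 and 7.37, 7.59 and 7.73 TPM in the mutant (3.38). The salicylic acid receptor NPR3 had -0.74, the glutaredoxin GRX480 -1.20 and the transcription factor SARD1 -0.62. PR1, the classical marker protein of this hormone, had 2, 2 and 4 counts in Col-0 and 17, 10 and 22 counts in the mutant; the mutant was higher, at means that went from 0.223 to 1.39 TPM. SARD1 and PR1 were named after their values were seen.

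Most WRKY transcription factors rose. Of 57 tested members, 38 were higher and 7 lower, 18 at least doubled, and the median was 0.44. WRKY60 was at 14.9, 12.7 and 13 TPM in Col-0 and 39.99, 48.4 and 44.8 TPM in the mutant (1.77). WRKY15, the most abundant, was at 79.1, 79.2 and 79.4 TPM in Col-0 and 115, 125 and 117 TPM in the mutant (0.64). WRKY49 rose by 1.69 and WRKY61 by 1.59. Among the few that fell were WRKY40 at 146, 146 and 153 against 50.3, 50.1 and 48 TPM (-1.52), WRKY46 (-1.36) and WRKY18 (-0.51), named after their values were seen; WRKY18 and WRKY40 act with WRKY60 in repression of defence genes, yet moved the other way from it.

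ERF and DREB factors showed the opposite balance, with 24 of 82 higher (29.3%) and 40 lower (48.8%). Over all genes tested the shares were 25.4% and 25.2%. RRTF1, a redox-responsive member whose promoter is printed above, was at 102, 101 and 98 TPM in Col-0 and 14.5, 16.4 and 16.1 TPM in the mutant (-2.62). The related ORA47 went from 70.1 ± 3.2 TPM in Col-0 to 11.1 ± 1.22 TPM in the mutant. AT5G21960 and AT1G19210 had -2.54 and -2.51. The groups were far apart in each of these genes. AT5G61890 rose by 2.90, and EBP, by far the most abundant of the family at 2379, 2384 and 2364 against 3346, 3258 and 3293 TPM, by 0.53.

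NAC factors had 27 of 72 higher (37.5%) and 13 lower (18.1%), with NAC042 up by 2.22 and NAC047 by 1.42. MYB factors had 37 of 104 higher (35.6%) and 21 lower (20.2%), and 22 higher with a mean count of at least 50. Factors of the bHLH class had 22 of 90 higher (24.4%), near the 25.4% over all genes tested, and 32 lower (35.6%). By DESeq2 12 were higher. The bHLH gene AT2G43140, of unknown role here, rose from 12.6 ± 0.771 TPM in Col-0 to 43 ± 2.62 TPM in the mutant.

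Chitinases and glucanases, which cut fungal cell wall polymers, had 15 of 22 tested members higher and 2 lower, 10 doubled and a median of 0.72; their summed level went from 1179 ± 17.2 TPM in Col-0 to 2939.8 ± 62.5 TPM in the mutant. AT2G43620 was at 265, 267 and 266 TPM in Col-0 and 1304, 1252 and 1344 TPM in the mutant. AT2G43590, in the same array of class IV chitinases on chromosome 2, was at 36, 36.8 and 37.9 TPM in Col-0 and 289, 296 and 287 TPM in the mutant. Both were several-fold higher in every mutant library, and 4 of the 5 tested genes of the array rose, CHI by 1.85 and AT2G43610 by 1.21. Elsewhere AT4G01700 rose by 2.62 and the chitinase gene CHIA by 2.06.

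Class III peroxidases, secreted heme enzymes that cross-link wall polymers and produce or use hydrogen peroxide, had 30 of 58 higher and 13 lower, and their summed level went from 5206 ± 43.2 TPM in Col-0 to 9790.2 ± 244 TPM in the mutant. AT5G64120 was at 304, 342 and 302 TPM in Col-0 and 3012, 2897 and 3234 TPM in the mutant, a 10.04-fold rise (log2 SE 0.05, adjusted p = 2.83e-27), and was the most abundant member in the mutant. PER4 and its neighbour AT1G14550 rose by 3.26 and 4.92, the second from 0.578 ± 0.155 TPM in Col-0 to 17.1 ± 1.42 TPM in the mutant. The family median of 0.21 was far smaller than these changes.

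Germins, secreted cupin proteins, had 8 of 13 higher and 1 lower. GLP9 was at 3.32, 4.23 and 4.41 TPM in Col-0 and 57.8, 58.5 and 51.8 TPM in the mutant and GLP4 at 2.61, 2.9 and 2.38 TPM in Col-0 and 28.5, 30.7 and 29.8 TPM in the mutant, 14.6-fold and 11.7-fold above Col-0, while GER1, the most abundant germin, did not change by the test (0.06). Of 14 proteinase inhibitors 5 rose and 3 fell, but the summed level went from 1071 ± 28.5 TPM in Col-0 to 2299.9 ± 146 TPM in the mutant. AT2G38870 alone was at 152, 162 and 167 TPM in Col-0 and 889, 923 and 739 TPM in the mutant.

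Lipid-transfer proteins included some of the most abundant responding transcripts. Of 67 tested members 32 rose and 18 fell, with a median of 0.13. On chromosome 4, from 7401087 to 7417873, lies the array of AZI1, needed for priming of systemic resistance by azelaic acid. AZI1 was at 1434, 1435 and 1428 TPM in Col-0 and 3925, 3679 and 3952 TPM in the mutant and EARLI1 at 1174, 1107 and 1196 TPM in Col-0 and 2935, 2882 and 2756 TPM in the mutant. AT4G12490 was at 112, 118 and 118 TPM in Col-0 and 951, 903 and 962 TPM in the mutant, and AT4G12500 at 11.6, 12.6 and 13.1 TPM in Col-0 and 323, 353 and 347 TPM in the mutant. The log2 fold changes of these 4 were 1.49 (SE 0.0375, adjusted p = 1.86e-22), 1.36, 3.08 and 4.84, so the pair with the highest Col-0 levels rose least; the neighbouring AT4G12510 fell, by 0.33, with overlapping libraries. LTP2, outside the array, rose by 0.59 from 1958 ± 13.5 TPM in Col-0 to 2841 ± 45 TPM in the mutant, while AT3G53980 fell by 1.36 on the log2 scale.

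**Figure D3:**
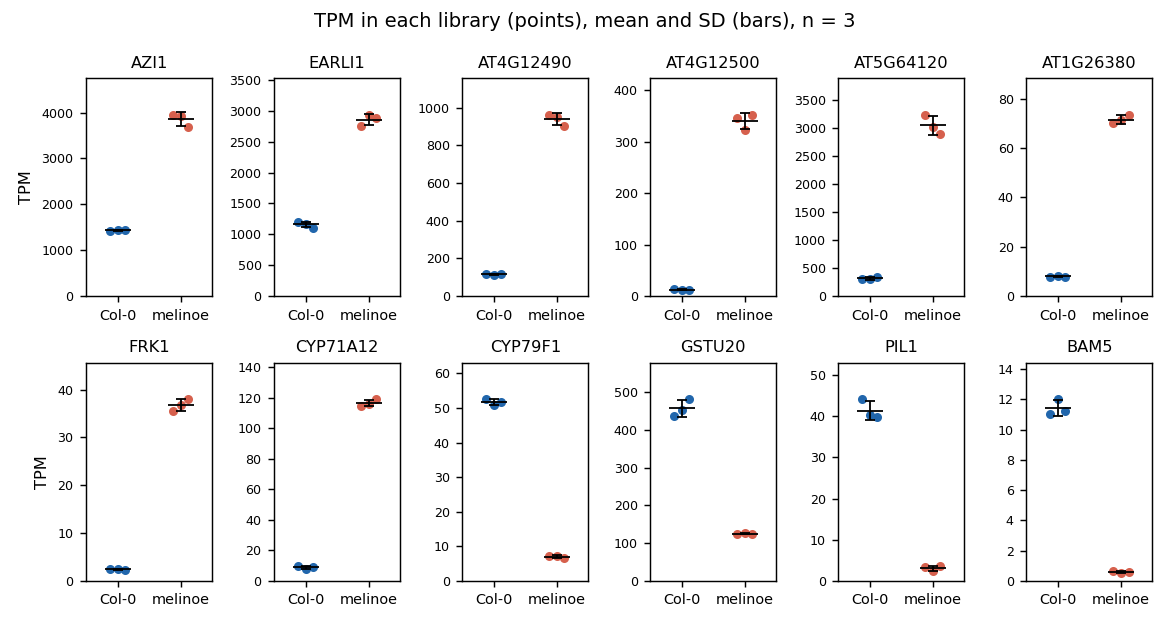
TPM of 12 genes in each library (points, with mean and SD, n = 3, each panel on its own linear axis from 0): the 4 rising genes of the AZI1 array, 4 other genes that rose and 4 that fell. In no panel do the libraries of Col-0 and melinoe overlap, as the naming rule required of ranked genes. The same held for 56.7% of all genes tested.

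Detoxifying enzymes were higher in part of their families. Glutathione S-transferases, which conjugate glutathione to reactive compounds, had 25 of 39 higher and 9 lower with a median of 0.35, and their summed level went from 5232 ± 106 TPM in Col-0 to 8142 ± 184 TPM in the mutant. GSTF2 went from 830.5 ± 21.6 TPM in Col-0 to 1757 ± 27.8 TPM in the mutant. GSTF7 was at 219.8, 217 and 213 TPM in Col-0 and 926, 1114 and 1155 TPM in the mutant. The neighbours GSTU12 and GSTU11 rose by 2.72 and 2.06 from low levels and GSTU22 by 2.53, whereas GSTU20, of the aliphatic glucosinolate pathway, fell (below). Reads of close paralogs such as GSTF2 and GSTF7 with their relatives are uncertain in their assignment. UDP-glycosyltransferases had 45 of 115 higher (39.1%) and 28 lower (24.3%), 17 lower by DESeq2. Cytochromes P450 had 57 of 148 higher (38.5%) and 40 lower (27.0%), 25 lower by DESeq2.

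Antioxidant enzymes did not rise as a group: 6 of 25 were higher, 2 with limma-trend, and 12 lower, with a median of -0.13. Cytosolic ascorbate peroxidase APX1 was at 889, 868 and 850.0 TPM in Col-0 and 1432, 1389 and 1437 TPM in the mutant (0.77). The superoxide dismutase CSD2 was at 446, 435 and 412 TPM in Col-0 and 262, 261 and 269 TPM in the mutant (-0.65). Catalase CAT2 (AT4G35090), of leaf peroxisomes, and dehydroascorbate reductase DHAR1 fell by 0.61 and 0.60 on the log2 scale. AOX1A, the alternative oxidase of mitochondria, rose by 0.54, and 4 of 10 genes of alternative respiration rose and 2 fell.

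The glucosinolate pathways of Arabidopsis split by amino acid precursor. Glucosinolates are sulfur-rich defence compounds of the cabbage order, made from tryptophan (indole) or from chain-elongated methionine (aliphatic). Of 21 tested genes of indole glucosinolate and camalexin metabolism 15 rose and 1 fell, with a median of 0.70 and a summed level that went from 1386 ± 16.2 TPM in Col-0 to 2383 ± 19.9 TPM in the mutant. Of 16 tested aliphatic genes 1 rose and 15 fell, with a median of -1.15 and a summed level that went from 2880.1 ± 25.9 TPM in Col-0 to 1372 ± 11.7 TPM in the mutant.

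On the indole side CYP71A12, which converts indole-3-acetaldoxime, was at 7.74, 8.82 and 10.04 TPM in Col-0 and 116, 119 and 115 TPM in the mutant. CYP83B1, the entry oxidase of indole glucosinolates, was at 226, 240.0 and 227 TPM in Col-0 and 589.5, 602 and 612 TPM in the mutant. IGMT2, a methyltransferase that decorates them, was at 13.5, 13 and 15.4 TPM in Col-0 and 51.3, 54 and 54.8 TPM in the mutant. All 3 rose, by 3.77 (SE 0.0623, edgeR adjusted p = 1.59e-26), 1.44 and 1.99. CYP82C2 (2.41), which acts with CYP71A12 and the berberine-bridge enzyme AT1G26380 in one indole pathway, also rose. PAD3, the last enzyme of camalexin synthesis, had 8.77, 8.18 and 7.59 against 6.84, 7.68 and 7.22 TPM and was not called (-0.12); it was named after its values were seen. Tryptophan synthesis, which feeds this branch, had 6 of 10 genes higher and 1 lower, with a sum that went from 573 ± 5.65 TPM in Col-0 to 987 ± 20.9 TPM in the mutant. TSA1 was at 76, 77 and 83.4 TPM in Col-0 and 174, 181 and 189 TPM in the mutant, and ASA1 and ASB1, the subunits of anthranilate synthase, rose by 0.94 and 0.89.

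On the aliphatic side CYP79F1, which makes the aldoximes of chain-elongated methionine, was at 50.9, 51.8 and 52.5 TPM in Col-0 and 7.23, 6.6 and 7.15 TPM in the mutant. CYP83A1, the next oxidase, was at 288, 312 and 294 TPM in Col-0 and 110.2, 111 and 104 TPM in the mutant. GSTU20, which joins glutathione to its product, was at 453, 481 and 438 TPM in Col-0 and 127, 124 and 124 TPM in the mutant. These steps fell by 2.83 (SE 0.0546, adjusted p = 4.58e-25), 1.40 and 1.81 on the log2 scale. Of the MYB factors that control the branch, MYB29 was at 5.22, 6.35 and 5.25 TPM in Col-0 and 0.996, 1.09 and 0.915 TPM in the mutant (-2.42). MYB28 had -0.32, and MYB76 had 17, 14 and 17 counts in Col-0 and 3, 0 and 1 counts in the mutant; both were named after their values were seen. ESM1, a protein that steers glucosinolate breakdown, was at 967, 913 and 933 TPM in Col-0 and 421, 444 and 455 TPM in the mutant.

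Further defence chemistry rose in the phenylpropanoid pathway, which makes lignin precursors and flavonoids, with 14 of 22 tested genes higher and 1 lower. C4H, its second enzyme, was at 343, 330.0 and 324 TPM in Col-0 and 651, 644 and 635 TPM in the mutant (1.01), and the methyltransferase OMT1 rose by 0.70. Terpene synthases went the other way, with 4 of 26 higher and 13 lower and a median of -0.59. MRN1, no member of that list, is the root-expressed marneral synthase of a triterpene pathway and fell from 39.2 ± 0.766 TPM in Col-0 to 5.6 ± 0.39 TPM in the mutant (-2.75).

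**Figure D4:**
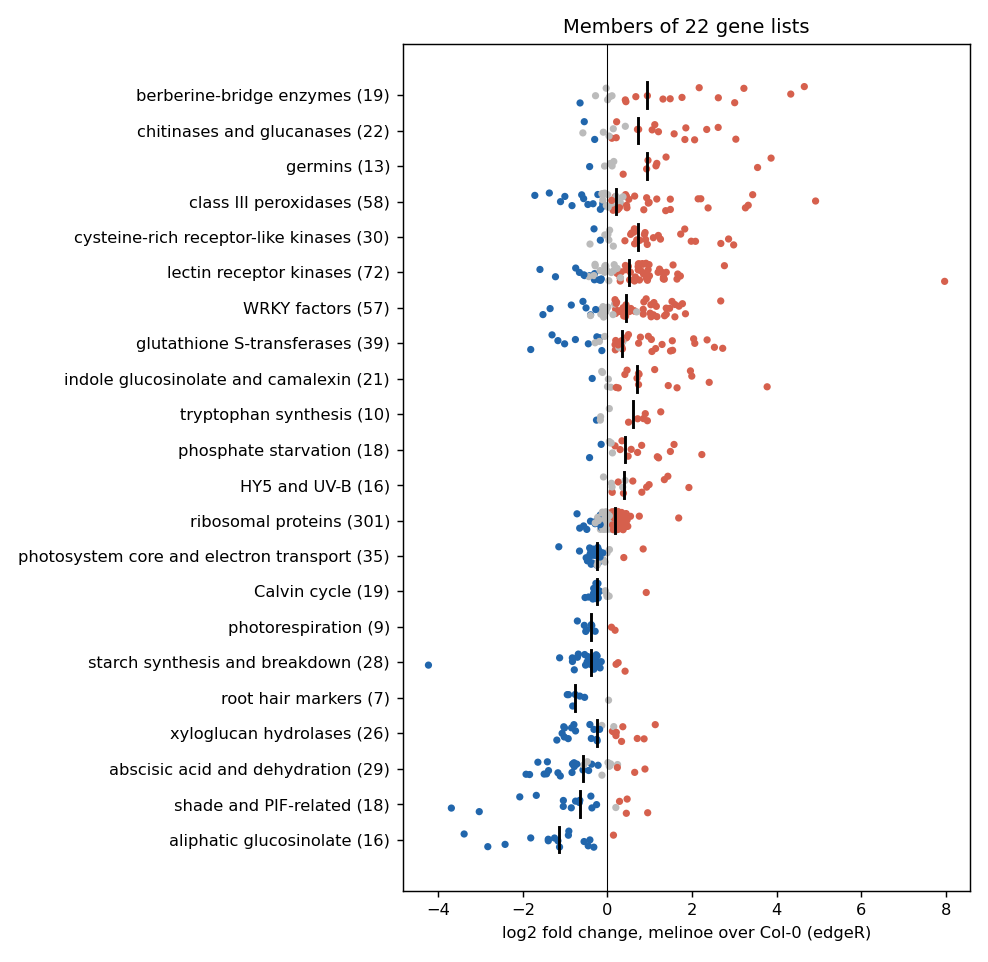
Log2 fold change (edgeR) of each tested member of 22 lists, with the number tested in parentheses and the median as a black bar; red points were called higher, blue lower and grey were not called. Indole and aliphatic glucosinolate genes lie on opposite sides of 0, with medians of 0.70 and -1.15.

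Photosynthesis genes beyond the antenna mostly fell, by small amounts at the median. Of 35 genes of the photosystem cores and electron transport 27 fell and 2 rose, with a median of -0.25, and their summed level went from 27573 ± 340.1 TPM in Col-0 to 20975 ± 307 TPM in the mutant. PSBQ-2, a subunit of the oxygen-evolving complex, was at 1002, 1058 and 974 TPM in Col-0 and 589.8, 623 and 631 TPM in the mutant, and PSBO1, another, at 2729.9, 2790.3 and 2652 TPM in Col-0 and 1837, 1823 and 1878 TPM in the mutant. PSBP-1 had -0.47 and PSAN, of photosystem I, -0.47. In each of these 4 the mutant libraries lay below Col-0, as the naming rule required. Members of the list ranged from -1.15 for PSBP-2, the only one halved, to 0.84 for PnsL3, which rose with PSB28; these 3 were named after their values were seen.

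The Calvin cycle had 14 of 19 genes lower and 1 higher, with a median of -0.26. RBCS1A, the main small subunit gene of RuBisCO, was at 8178, 8262 and 8172 TPM in Col-0 and 6806, 6325 and 6670.5 TPM in the mutant, whereas RBCS1B was at 160.0, 175 and 189 TPM in Col-0 and 334, 315 and 301 TPM in the mutant and was the only member to rise; reads of these close paralogs are uncertain in their assignment. PGK1 and FBA1 fell by 0.53 and 0.45 on the log2 scale, and the triose phosphate exporter APE2 by 0.62. In photorespiration, which starts with the flavoenzyme glycolate oxidase, 7 of 9 genes fell and 2 rose. PGLP1, GGT1 (AT1G23310) and HPR had -0.71, -0.49 and -0.55. Chlorophyll synthesis had 10 of 21 genes lower, 6 without melinoe library A, and 3 higher. PORA, a light-repressed protochlorophyllide oxidoreductase, fell from 34.8 ± 2.53 TPM in Col-0 to 12.1 ± 0.731 TPM in the mutant (-1.47).

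Starch metabolism moved as a block, with 25 of 28 genes lower and 3 higher and a median of -0.38. BAM5, a beta-amylase outside the plastid, was at 12, 11.2 and 11 TPM in Col-0 and 0.51, 0.554 and 0.675 TPM in the mutant, an 18.8-fold fall (log2 SE 0.13, adjusted p = 1.56e-20). The glucan phosphatase SEX4 was at 22, 21.8 and 22.2 TPM in Col-0 and 11.2, 11.4 and 13 TPM in the mutant, and the debranching enzymes LDA and ISA3 fell by 0.83 and 0.78 on the log2 scale. Markers of dark and sugar starvation were mixed, 7 of 17 higher and 8 lower. SEN1 (AT4G35770), the most abundant of them, was at 1403, 1451 and 1361 TPM in Col-0 and 736, 708 and 767 TPM in the mutant, while the sugar importer STP4 was at 83.3, 88.7 and 87 TPM in Col-0 and 234, 226 and 226 TPM in the mutant.

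Light-signalling genes fell into opposed groups. Shade and PIF-related genes, which low red to far-red light and the PIF transcription factors induce, mostly fell: 13 of 18 were lower, 4 were higher, and the median was -0.66. PIL1 was at 40.2, 39.9 and 44.1 TPM in Col-0 and 2.38, 3.52 and 3.31 TPM in the mutant. HB-2 (ATHB2) was at 84.3, 85.5 and 80.6 TPM in Col-0 and 18.8, 19.4 and 19 TPM in the mutant, and HFR1 at 54, 54.2 and 52.8 TPM in Col-0 and 15.6, 17 and 15.6 TPM in the mutant. The first fell 12.9-fold (log2 SE 0.0908, adjusted p = 1.08e-22), the others 4.21-fold and 3.21-fold, and IAA29 8.17-fold. PIF4 itself, named after its values were seen, had 54.9, 53.7 and 56.6 against 24.7, 26.1 and 26.2 TPM (-1.04).

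HY5 and UV-B genes had 10 of 16 higher and 0 lower, with a median of 0.40. The factor HY5, for which the list is named in part, acts against PIF-driven elongation. HY5 was at 19, 18.3 and 19.3 TPM in Col-0 and 44.9, 48.9 and 44.3 TPM in the mutant and its homolog HYH at 11.5, 11.7 and 13.4 TPM in Col-0 and 31.1, 34 and 29.3 TPM in the mutant, so both more than doubled (log2 fold changes 1.35 and 1.43). SPA1 and LZF1 rose by 0.93 and 0.81. ELIP1, a light-stress protein named after its values were seen, had 7, 7 and 3 counts in Col-0 and 18, 17 and 27 counts in the mutant.

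Clock genes moved beside these light genes, with 15 of 25 higher and 2 lower. RVE2 was at 31.2, 33 and 28.9 TPM in Col-0 and 87.8, 94.2 and 90.4 TPM in the mutant, PRR9 at 26.7, 26.8 and 25.4 TPM in Col-0 and 41.8, 46.4 and 46.2 TPM in the mutant and RVE1 had 1.09. The morning genes CCA1 and LHY rose by 0.42 and 0.53, PRR5 rose from 1.02 to 3.93 TPM and PRR7 fell by 0.62 on the log2 scale; these 4 were named after their values were seen. Since the hour of collection is not given, a difference in time of day between the groups, and its part in the light, starch and photosynthesis results, was not tested.

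Genes of growth and the cell wall were lower in several families. Expansins, which loosen walls, had 14 of 23 lower and 4 higher. Xyloglucan hydrolases had 15 of 26 lower and 9 higher. Their summed level overlapped between the groups, at 4740 ± 153 TPM in Col-0 and 4616 ± 61.7 TPM in the mutant. XTH15 was at 725, 724 and 705 TPM in Col-0 and 419, 433 and 375 TPM in the mutant and TCH4 at 271, 256 and 267 TPM in Col-0 and 120.4, 128 and 124 TPM in the mutant, with log2 fold changes of -0.75 and -1.03. Cellulose synthases and their relatives had 14 of 32 lower and 4 higher, and arabinogalactan proteins 17 of 44 lower and 7 higher. Members of these families that rose included EXPA1, XTH24 and AGP12, by 0.33, 0.33 and 0.22, and CSLB03 by 1.15. Of the xyloglucan hydrolases 1 at least doubled and 5 at least halved. Of the cellulose synthases and relatives 2 doubled and 2 halved, and of the arabinogalactan proteins 1 doubled and 3 halved. Of the expansins 0 doubled and 1 halved. AGP30, an arabinogalactan protein of roots, was at 49.7, 49.3 and 49.7 TPM in Col-0 and 6.41, 7.07 and 6.64 TPM in the mutant (-2.83).

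Some structural wall proteins rose at high abundance. EXT4, an extensin that stiffens walls, was at 432, 432 and 542 TPM in Col-0 and 2047, 1896 and 2094 TPM in the mutant (2.16), and EXT3, the most abundant of the list, had 0.65. AT1G26240 and AT1G26250, neighbouring extensin-like genes, rose by 3.62 and 2.66. GRP-3, a glycine-rich protein that binds wall-associated kinase in Arabidopsis, was at 1088, 1455 and 1429 TPM in Col-0 and 2905, 2678 and 2288 TPM in the mutant, and its near copy GRP3S at 863, 1092 and 1196 TPM in Col-0 and 2257, 2070.2 and 1754 TPM in the mutant; reads of the pair are uncertain in their assignment. As a whole the proline-rich and extensin list had 45 of 156 higher and 43 lower, a near balance that tipped to more lower than higher under several alternatives, with 43 higher and 45 lower under upper quartile scaling.

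Root hair markers and part of the endodermis and root tip markers fell with the wall genes. Other root genes named in the text moved both ways. The root importers PHT1;4 and SULTR1;2 rose (below), whereas AGP30, MRN1, TIP2;2 and TIP2;3 fell. Of 7 root hair markers, 6 fell and none rose, with RHD6, the factor that starts hair growth, not called (0.03); it was named after its values were seen. Their summed level went from 97.8 ± 9.99 TPM in Col-0 to 53.9 ± 5.63 TPM in the mutant. PRP3 was at 44.1, 48.2 and 55 TPM in Col-0 and 27.7, 19.4 and 26.1 TPM in the mutant and EXPA7 at 13.6, 15 and 16.1 TPM in Col-0 and 8.28, 8.48 and 7.5 TPM in the mutant. Of 10 endodermis and root tip markers 5 fell, 3 by DESeq2 or with a mean count of at least 50, and 1 rose, SCR by 0.24. In whole seedlings, fewer cells of a type and less RNA per cell cannot be told apart, and the part of root hair or root content in the wall and transport results was not tested. Among other tissue markers, of 6 stomatal lineage markers 4 rose, 2 by DESeq2, of 4 tested meristem markers 3 rose, and of 10 vascular markers 3 rose and 1 fell, within -0.14 to 0.19.

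Abscisic acid and dehydration genes were mostly lower, 18 of 29 falling and 3 rising, with a median of -0.58. COR47, a dehydrin, was at 363, 319 and 356 TPM in Col-0 and 182, 189.6 and 187 TPM in the mutant, and ERD10, another, at 261, 263 and 259 TPM in Col-0 and 107, 116 and 111 TPM in the mutant. NCED3, the rate-limiting enzyme of abscisic acid synthesis under drought, was at 3.77, 3.61 and 3.91 TPM in Col-0 and 1.21, 1.42 and 1.22 TPM in the mutant. These fell by 0.84, 1.17 and 1.50 on the log2 scale, and the factors NAC019 and CBF1 by 1.92 and 1.84.

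Other hormone lists had small medians with single large changes. AUX/IAA and GH3 genes of auxin response, among which the annotation pattern places PBS3, had 11 of 37 higher and 14 lower. IAA19, with the G-box printed above, was at 48.2, 46.3 and 48.2 TPM in Col-0 and 22.7, 23.6 and 20.2 TPM in the mutant, and the auxin-conjugating enzyme GH3.3 fell by 1.22 on the log2 scale. Cytokinin genes had 9 of 19 higher and 4 lower, the type-A response regulators ARR7, ARR6 and ARR4 rising by 1.20, 0.89 and 0.71. In ethylene synthesis the enzyme genes ACS7 and ACS11 rose by 1.58 and 1.15 while ACS8 and ACS6 fell by 1.17 and 1.02 on the log2 scale. The gibberellin repressor GAI had -0.93.

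Nutrient uptake genes rose for phosphate and in part for nitrogen. Phosphate starvation genes had 12 of 18 higher and 2 lower, with a median of 0.42. The root phosphate importer PHT1;4 was at 29.8, 28.9 and 30.1 TPM in Col-0 and 134, 134 and 132 TPM in the mutant (log2 fold change 2.23, SE 0.0427, adjusted p = 3.72e-25), and PHT1;1 at 59.4, 56.3 and 57.2 TPM in Col-0 and 129, 125 and 129 TPM in the mutant. IPS1, a noncoding RNA induced by low phosphate, rose by 1.49 and the galactolipid synthase gene MGDC by 1.57. Nitrate and ammonium genes had 13 of 24 higher and 8 lower. Their summed level overlapped between the groups, at 5224 ± 54.3 TPM in Col-0 and 5223 ± 79.7 TPM in the mutant. Cytosolic glutamine synthetase GSR 1 was at 181, 169 and 174 TPM in Col-0 and 395, 392 and 400.4 TPM in the mutant. WR3, a partner of high-affinity nitrate transporters, rose by 1.68. NRT2.5, such a transporter, had 4, 7 and 4 counts in Col-0 and 53, 49 and 39 counts in the mutant, and was named after its values were seen.

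Sulfur genes had 11 of 26 lower and 4 higher. SULTR1;2, the main root sulfate importer, rose by 1.14, while SULTR1;1, its starvation-induced relative, went from 1.67 to 0.475 TPM and was named after its values were seen. For iron, 5 of 14 deficiency genes rose and 4 fell. AT3G13610, the oxygenase that makes iron-mobilising coumarins, was at 39.2, 35.9 and 37.1 TPM in Col-0 and 115, 118 and 114 TPM in the mutant, and the coumarin exporter ABCG37 rose by 1.03.

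Among other carriers, the amino acid importer LHT1 was at 18.1, 18 and 17.8 TPM in Col-0 and 77.3, 75.3 and 75.9 TPM in the mutant (2.14). Aquaporins, the water channels, had 10 of 29 higher (34.5%) and 14 lower (48.3%). Their summed level went from 12216 ± 79.3 TPM in Col-0 to 9694 ± 237 TPM in the mutant. TIP2;2 and TIP2;3, vacuolar channels of roots, fell by 1.34 and 1.71 on the log2 scale and PIP1A by 0.62, whereas NIP2;1 rose from 1.39 ± 0.264 TPM in Col-0 to 7.3 ± 0.387 TPM in the mutant (2.44). ABC transporters had 37 of 77 higher and 22 lower; PEN3 (AT1G59870), which exports indole defence compounds, rose by 0.70.

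Genes for ribosomal proteins rose widely but slightly. Of 301 genes annotated as ribosomal proteins 183 rose (60.8%) and 16 fell, with a median of 0.18. Of all genes tested 25.4% were higher, and of those at 100 to 1000 TPM 47.2%. The summed level of the list went from 62362 ± 650.2 TPM in Col-0 to 68648 ± 215 TPM in the mutant. With the trend on GC content and length removed 152 rose and 32 fell, and with limma-trend 27 fell. AT5G20290, the most abundant, was at 1149.7, 1059.7 and 1129.8 TPM in Col-0 and 1246, 1204 and 1228 TPM in the mutant (0.20). Only 1 member doubled, so the list holds many small changes at high expression. Genes of nucleolar ribosome biogenesis had 8 of 36 higher and 9 lower, with a median of 0.01. Cyclin and DNA replication genes had 33 of 91 lower and 12 higher, but 17 lower by DESeq2 and 21 without melinoe library C.

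**Figure D5:**
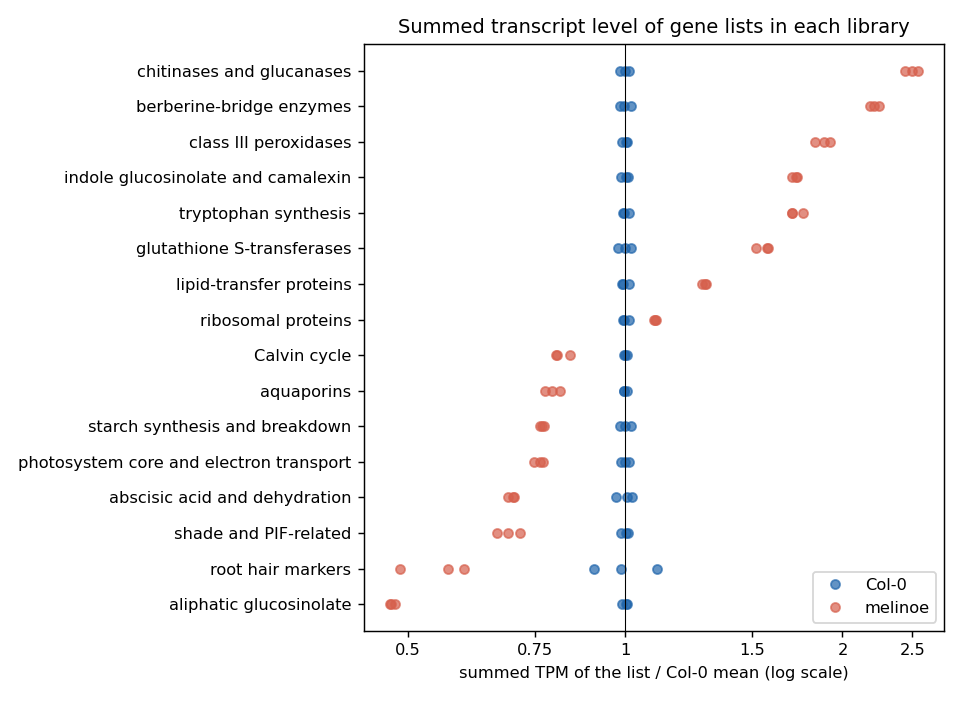
Summed TPM of 16 lists in each library, divided by the Col-0 mean of that list (log axis; blue Col-0, red melinoe, 3 libraries each). Chitinases and glucanases reach the highest ratio and aliphatic glucosinolate genes the lowest, and the 2 genotypes do not overlap in any list shown. Sums of many lists not shown also lay apart, some of them nearly unchanged, such as the proteasome at a ratio of 0.98.

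Beyond these families, the genes with the largest changes at 100 or more counts were single members of their families or genes of little-known function. AT1G67270, with a zinc-finger domain, rose by 5.69, AT5G25260, with a Band 7 domain, by 4.52, the transaminase gene AT4G28420 by 4.23, the PLAC8 gene AT1G49030 by 4.16, MRD1 by 3.94 and AT3G01345 by 3.81. MRD1 was at 0.98, 1.38 and 0.796 TPM in Col-0 and 14.6, 16.3 and 16.1 TPM in the mutant. At the low end stood the calcium-binding gene AT1G76640 at -2.70, AT5G45630 at -2.71 and the peptide hormone gene CLE5 at -2.57. CLE5 was at 11.4, 10.01 and 10.8 TPM in Col-0 and 1.64, 2.27 and 1.28 TPM in the mutant. Among abundant genes that fell at least 1.5-fold were also AT1G62480 at -0.63, AT3G15450 at -0.68 and LpxC2 at -0.59.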

How the data were processed

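The deposited values are expected counts of reads per gene and library, not normalized, per the file headers and the submitters' processing notes, which name RSEM, Bowtie2 and DESeq2 with TAIR10; the design text instead names SOAPnuke 1.5.2 and HISAT2 2.0.4, so the aligner is not settled. Columns were mapped to groups by their prefix. Since their letters match no replicate label, 1 measure per library was kept, and the 12 deposited per-library TPM columns were not used. TPM was computed here instead from the counts and the longest annotated mRNA of each gene. The authors' log2 fold changes, p-values and q-values, deposited in the same table, served only to set calls side by side: of 7905 tested genes with the authors' q-value under 0.05, 7903 were called here, 0 of them with opposite sign.

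Of the counts 1.92% were not whole and all were rounded. The 6 libraries were fitted in edgeR 4.0.16 (R 4.3.3) with filterByExpr (minimum count 10, minimum total 15), TMM, the quasi-likelihood F test, no covariate, and Benjamini-Hochberg over the 20277 genes tested; fold changes use a prior count of 0.125. Totals were 19964391 to 21421414 counts; the counting error of a gene depends on its own counts, and is larger where these are few. All 24242 identifiers matched the RefSeq annotation of TAIR10.1.

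The 98 gene lists, 3 of them set aside, and the naming rule were written with earlier results of these data known. Named are FMN/FHY; the 12 highest and 12 lowest log2 fold changes of called genes whose groups did not overlap and whose higher group averaged 100 counts or more; up to 4 such members per list and its most abundant member; and per direction the 10 most abundant genes changed at least 1.5-fold. Genes named outside the rule are marked. Lists come from symbols or product names and 26 entries absent from the annotation were dropped.

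Alternatives were DESeq2 1.42.0, 2 other scalings, no filter or a mean count above 50 or equal to it, a joint fit of the 9 libraries, a block of column letters, limma-trend (limma 3.58.1) on log2(TPM + 1) of the computed TPM (added after the data were seen, in place of the deposited TPM), a GC and length trend removed (mgcv 1.9.3), and leaving out each library. The column letters A to C are not in the labels; deviations of same-lettered libraries from the means of the 2 groups correlated across genes at -0.00232 to 0.028, so the letters were not taken to pair libraries. Tested on simulated data with 50 genes changed per fold, the fit recovered 72% at the smallest fold simulated, 82% at 1.5-fold, 100% at 2-fold and 96% at 4-fold among 20277 genes, and called 18 unchanged genes. The simulation changed a far smaller share of genes than the 50.6% called in the data. Its dispersions were estimated from these same libraries, so its rates need not hold for the data.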

Additional observations from a re-analysis of the deposited data

How the results depend on the processing

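With DESeq2, 4266 genes were higher and 3894 lower, against 5148 and 5106; over the alternatives on all libraries higher genes ran from 3953 to 5270 and lower genes from 3894 to 6128. With a mean count of at least 50, 482 genes doubled and 274 halved, where fewer low genes were tested; with limma-trend on log2(TPM + 1), 437 doubled and 276 halved, where the pseudocount shrinks low genes. The limma-trend values were computed after the data were seen, and the fit on the deposited TPM was not run. The block of column letters, for libraries that share only a letter, gave 5245 higher and 5183 lower genes. Leaving out 1 library at a time gave 4704 to 4877 higher, 4606 to 4818 lower, 742 to 784 doubled and 511 to 547 halved genes. No named gene reversed a called direction in any of the alternatives, and among those still tested at most 11 lost their call under 1 of them, with limma-trend; with a mean count of at least 50, only 456 of the 471 named genes were tested, so the low-count genes named, the seed albumins and PR1 among them, have no call there.

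In the same leave-1-out fits, members higher ran from 13 to 13 for berberine-bridge enzymes, 26 to 33 for class III peroxidases, 13 to 15 for chitinases and glucanases, 24 to 26 for glutathione S-transferases, 21 to 22 for cysteine-rich kinases, 15 to 15 for indole glucosinolate, 6 to 6 for tryptophan synthesis, 36 to 38 for WRKY factors, 8 to 11 for HY5 and UV-B, 11 to 12 for phosphate and 169 to 184 for ribosomal proteins. Members lower ran from 15 to 15 for aliphatic glucosinolate, 24 to 28 for photosystem, 14 to 15 for Calvin cycle, 23 to 25 for starch, 18 to 19 for abscisic acid and 12 to 13 for shade genes. Further counts moved by more than 1.5 times. With DESeq2 fewer were lower among lectin receptor kinases (7 against 12), receptor-like proteins (3 against 5), ABC transporters (14 against 22, and 14 with the GC and length trend removed) and cytokinin genes (2 against 4), and fewer higher among terpene synthases (1 against 4). With a mean count of at least 50, 3 iron deficiency genes were higher against 5, and 3 defensins lower against 7. The cause was not tested. Genes below about 10 counts per library were not tested, and reads split among near-identical paralogs limit the array results.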

Other observations

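Some transcripts named for seeds and flowers were detected, several of them in 1 genotype more than in the other. The 2S albumin SESA5, a seed storage protein, had 2, 0 and 3 counts in Col-0 and 43, 47 and 42 counts in the mutant. SESA3 had 0, 0 and 0 counts in Col-0 and 21, 16 and 18 counts in the mutant, and SESA2 0, 3 and 0 counts in Col-0 and 15, 22 and 31 counts in the mutant. These 3 albumins thus had reads in every mutant library and few or none in Col-0, at means below 5 TPM. A further albumin, SESA1, rose by 1.40, whereas the cupin CRA1 had -0.57. Of 8 tested seed storage markers 4 rose, 1 fell and 3 were not called. With a mean count of at least 50 none of the seed genes was called higher. The floral factor SEP3 was at 147, 148 and 141 TPM in Col-0 and 73.2, 77.3 and 76.5 TPM in the mutant (-0.88), while AP3, another floral factor, was at 1.29, 1.24 and 1.81 TPM in Col-0 and 0.581, 0.687 and 0.435 TPM in the mutant. SESA1, SESA2, SESA3, SESA5 and AP3 were named after their values were seen.

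Surface lipid genes rose by small amounts. Wax and cutin genes had 16 of 21 higher and 2 lower, beside 25.4% and 25.2% over all genes, with the elongases KCS1 and KCS6 up by 0.59 and 0.57, and CER4, a reductase of wax alcohols, at -0.94. Suberin genes had 11 of 14 higher and 1 lower; the hydroxylase CYP86A1 rose by 0.79 and the exporter ABCG6 by 1.00, although the endodermal markers CASP2 and CASP5 had -0.27 and -0.89. Defensins, small antimicrobial proteins, went lower in 7 of 12 tested cases and higher in 1. PDF1.2, a defensin that jasmonate and ethylene induce, had 31, 32 and 24 counts in Col-0 and 0, 1 and 0 counts in the mutant, and PDF1.3 51, 35 and 41 counts in Col-0 and 1, 1 and 2 counts in the mutant, so both were close to absent in the mutant libraries; PDF1.4 was at 65.1, 65.8 and 68 TPM in Col-0 and 193, 176 and 174 TPM in the mutant and moved the other way. PDF1.2 and PDF1.3 were named after their values were seen, and reads of these paralogs are uncertain in their assignment.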
